A study of Mus musculus with 6 samples.

Results

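The genes described here encode the immunoglobulin light chains: the variable (V) segments Igkv and Iglv and the constant (C) segments Igkc and Iglc of the kappa and lambda loci. They are the 63 rows, of 39179 Ensembl gene identifiers in the expression table, whose identifier is paired with a symbol starting with Igkv, Iglv, Igkc or Iglc: 58 Igkv, 3 Iglv, Igkc and Iglc2. The name table lists 106 such genes, and the other 43 (42 Igkv and Iglc3) have identifiers without a row and were not analysed here. Shares and sums of V genes therefore cover the 58 Igkv rows and are not those of the whole kappa repertoire. Likewise, lambda constant expression rests on Iglc2 alone, and any lambda constant gene that the name table does not list was not analysed.

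Expression was measured by RNA-Seq in 2 populations of Peyer's patch B cells from wild-type C57BL/6 female mice aged 12 wk: germinal center (GC) B cells, sorted as Fas+GL7+, and naive or resting B cells, sorted as Fas-GL7-. Each population was measured in 3 replicates, each a pool of 5 animals, so that differences between single mice are averaged within a pool. In bulk samples such as these, fewer cells of a type and less RNA per cell cannot be told apart.

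A light chain pairs with the heavy chain to form the antigen receptor of a B cell and the antibody of its plasma cell progeny. In each B cell precursor, a V segment is joined to a J segment of the kappa locus, and lambda is usually rearranged when kappa fails, so that 1 cell carries 1 light chain in most cases and mouse B cells are mostly kappa. In the GC, clones expand, the rearranged V segment is mutated, and cells are selected by antigen, so that V usage in a GC population reflects the clones it holds as well as the precursors it came from.

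The labelled populations carried the genes expected of their names. The GC markers Fas, Bcl6, Mybl1 and S1pr2 were higher and the resting markers Fcer2a, Ccr7 and Klf2 lower in GC B cells (limma, adjusted p under 0.05), with Fas being part of the sort. Bcl6, which encodes a repressor that GC B cells require, had 242, 250 and 258 TPM in GC and 49.0, 51.6 and 46.9 TPM in the naive pools. TPM is the deposited FPKM rescaled so that each pool has the same total, and is a level per transcript length. Depth was inferred from the spacing of low FPKM values and lay between 9600000 and 16200000 reads per pool (9900000 to 10800000 in GC and 9600000 to 16200000 in naive pools). Between 63.5% and 71.0% of low values lay within 0.1 of a whole read, so these depths are approximate.

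The sequences that bear on how the V genes are told apart are shown first. A kappa V segment ends in the bases that encode the start of the third complementarity-determining region, the part of the light chain that is completed by joining to J. The germline ends of 8 Igkv genes, chosen because the results turn on them, are given here 5′ to 3′ on the coding strand from the coding sequences of the GENCODE annotation of NCBIM37. The capitals run from the last in-frame cysteine codon to the end of the segment.
Igkv16-104: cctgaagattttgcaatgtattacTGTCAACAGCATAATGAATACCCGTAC
Igkv12-46: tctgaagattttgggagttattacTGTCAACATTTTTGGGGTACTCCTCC
Igkv4-57: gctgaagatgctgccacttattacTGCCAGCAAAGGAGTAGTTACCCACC
Igkv6-32: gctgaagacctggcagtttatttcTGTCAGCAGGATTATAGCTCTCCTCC
Igkv17-127: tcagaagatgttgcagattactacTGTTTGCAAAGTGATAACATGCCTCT
Igkv17-121: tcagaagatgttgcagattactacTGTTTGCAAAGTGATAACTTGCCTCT
Igkv3-10: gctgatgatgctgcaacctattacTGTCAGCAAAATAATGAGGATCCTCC
Igkv3-7: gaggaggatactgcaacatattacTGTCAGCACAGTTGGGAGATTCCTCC

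Igkv17-127 and Igkv17-121 are 97.4% identical over their aligned coding bases, and reads from such pairs are divided by the model of the quantification program. Of the 58 Igkv genes, 18 had another annotated Igkv gene at 95% identity or more, so their single values are less certain than those of Igkv16-104, whose nearest relative is 74.6% identical. Among the lambda V genes, Iglv1 and Iglv2 were 97.1% identical over 348 aligned bases, while Iglv3 was 60.8% identical to Iglv1. The last 240 bases of the alignment of Iglv1 and Iglv2 follow, with the 6 positions at which they differ in capitals.
Iglv1: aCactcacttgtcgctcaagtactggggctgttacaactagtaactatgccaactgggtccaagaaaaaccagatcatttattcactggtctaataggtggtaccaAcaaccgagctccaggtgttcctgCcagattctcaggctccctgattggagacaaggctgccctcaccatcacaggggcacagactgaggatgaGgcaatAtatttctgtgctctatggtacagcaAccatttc
Iglv2: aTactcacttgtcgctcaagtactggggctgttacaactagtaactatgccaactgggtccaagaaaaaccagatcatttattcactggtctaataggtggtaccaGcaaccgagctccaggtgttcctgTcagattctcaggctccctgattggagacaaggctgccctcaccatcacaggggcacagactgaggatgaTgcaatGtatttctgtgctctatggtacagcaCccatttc

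The only lambda constant gene with a row had the smallest adjusted p of the light chain genes. Iglc2 (ENSMUSG00000076937; GRCm38.p6, chromosome 16, 19198536 to 19198852, minus strand), which encodes a lambda constant domain, had 389, 387 and 391 TPM in GC and 1121, 1168 and 1188 TPM in naive pools. The groups did not overlap, and the 3 GC values lay within a few TPM of each other. On the scale of log2(TPM + 1), its fold change was -1.57 ± 0.04 (SE; limma, adjusted p = 3.50e-07). Iglc3 has no row and is 96.5% identical to Iglc2 in coding sequence, and how reads were divided between them was not tested.

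Igkc (ENSMUSG00000076609; chromosome 6, 70726435 to 70726754, plus strand), the only kappa constant gene, was the most abundant of the 63 genes in every pool. It was at 8811, 8801 and 8623 TPM in GC and at 10142, 9754 and 10691 TPM in naive B cells. All GC pools were below all naive pools, but by a small margin, with a log2 fold change of -0.22 ± 0.04 (SE; limma, adjusted p = 0.00483). This call was lost without the filter on low genes (adjusted p = 0.0701 in limma), where the log2 fold change was still -0.22. With FPKM as deposited it was -0.27, and on the scale of equal summed Igkv TPM it was 0.60, so the direction of Igkc depends on the scaling. Quantile normalization gave 0.017 (adjusted p = 0.719 in limma). That method gives genes of equal rank equal values, so it cannot show a change of a gene that keeps its rank in every pool.

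All 3 lambda V genes were called lower in GC B cells. Iglv1 (chromosome 16, 19085017 to 19085460) was at 157, 246 and 172 TPM in GC and at 375, 338 and 328 TPM in naive pools, with a log2 fold change of -0.88 ± 0.17 (SE; limma, adjusted p = 0.00355). Iglv3 (chromosome 16, 19241208 to 19241679) was at 118, 132 and 134 TPM in GC and at 324, 335 and 283 TPM in naive pools (log2 fold change -1.29 ± 0.08, SE; limma, adjusted p = 2.21e-05). Iglv2 (chromosome 16, 19260403 to 19260844), the least abundant, was at 22.9, 17.1 and 27.9 TPM in GC and at 72.6, 55.1 and 73.2 TPM in naive pools (-1.54 ± 0.19, SE; limma, adjusted p = 0.000530). No GC pool reached a naive pool in any of the 3 genes. GC replicate 2 was the highest GC pool for Iglv1 and the lowest for Iglv2. Iglv1 made up 52.8%, 62.3% and 51.5% of summed Iglv TPM in GC against 48.6%, 46.4% and 47.9% in naive pools. Relative to summed Igkv TPM, Iglv1 changed by -0.06 (adjusted p = 0.748 in limma), so its call holds on the scale of all transcripts and not against the kappa V genes.

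Lambda among constant transcripts was measured as the share of Iglc2 in the sum of Igkc and Iglc2. No other row was named as a lambda constant gene, so this is not the share of all lambda constant transcripts. The Iglc2 share was 4.22%, 4.21% and 4.34% in GC pools and 9.95%, 10.7% and 9.998% in naive pools. The means were 4.26% ± 0.0731 against 10.2% ± 0.417 (SD, n = 3 each). Naive pools were thus 2.40 times GC pools in this share, and the exact two-sided permutation test gave p = 0.1, the smallest that 3 against 3 pools allow (0.14 after Benjamini-Hochberg adjustment over the 7 measures tested). Both the level of the share and its ratio between populations depend on the transcript lengths used for Igkc and Iglc2. The share of lambda among V transcripts was 14.9%, 18.9% and 16.9% in GC and 20.3%, 21.0% and 17.9% in naive pools, and the groups overlapped (exact two-sided permutation test, p = 0.2). The difference of -2.85 percentage points became -1.84 without GC replicate 1, and the groups no longer overlapped without GC replicate 2 (-3.87) or without naive replicate 3 (-3.76). V shares are over the Igkv genes that have a row and cannot be set beside the constant share as a level.

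**Figure D1:**
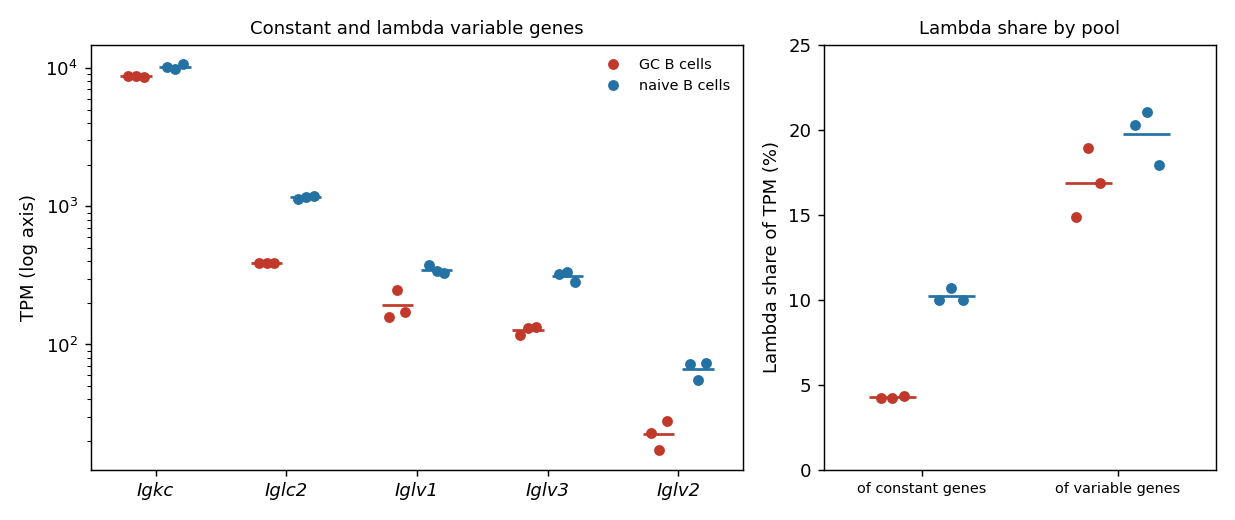
Left, TPM on a log axis of Igkc, Iglc2, Iglv1, Iglv3 and Iglv2 in each pool (points) with the group mean (line), GC in red and naive in blue. Right, lambda as a percent of constant TPM (Iglc2 over Igkc and Iglc2) and of variable TPM (Iglv over Igkv and Iglv); GC pools sit near 4.26% and naive pools near 10.2% of constant TPM, while GC and naive pools overlap for variable TPM.

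Over all 63 genes, light chain transcripts summed to 11207, 11275 and 10997 TPM in GC and to 15068, 14383 and 15700 TPM in naive pools. Naive pools were 1.35 times GC pools (exact two-sided permutation test, p = 0.1, the smallest possible here). The V and C transcripts of kappa differed by unequal amounts. Summed Igkv TPM was 1709, 1692 and 1648 in GC and 3034, 2733 and 3137 in naive pools, with each GC pool under each naive pool. The ratio of summed Igkv to Igkc was 0.194, 0.192 and 0.191 in GC and 0.299, 0.280 and 0.293 in naive pools (exact two-sided permutation test, p = 0.1). For lambda the ratio of Iglv to Iglc2 moved the other way, from 0.687, 0.623 and 0.576 in naive to 0.768, 1.02 and 0.854 in GC pools. The groups again did not overlap. Both ratios cover only the V and C genes with a row, and the part of the other genes was not tested. Iglv1, the largest part of summed Iglv, had a larger share of it in GC pools, and which constant gene Iglv1 transcripts carry was not tested. The part of mutated reads that no longer match a germline V segment in these V values was not tested.

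Of the 63 genes, 56 reached 1 TPM in at least 3 pools and were tested: 51 Igkv, Iglc2, Igkc and the 3 Iglv. In limma, 30 (53.6%) were called lower in GC B cells, where 30.1% of all 12785 genes tested were. None was called higher (0 of 56, also 0 at an unadjusted p under 0.05), where 35.5% of all genes were. The pools did not overlap, with GC below naive, in 31 genes (55.4%; 32.8% of all genes). The median log2 fold change was -0.98 over the 56 genes and 0.03 over all genes. The 7 genes that were not tested were all Igkv, and Igkv19-93 and Igkv10-96 were listed at 0 in every pool.

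**Figure D2:**
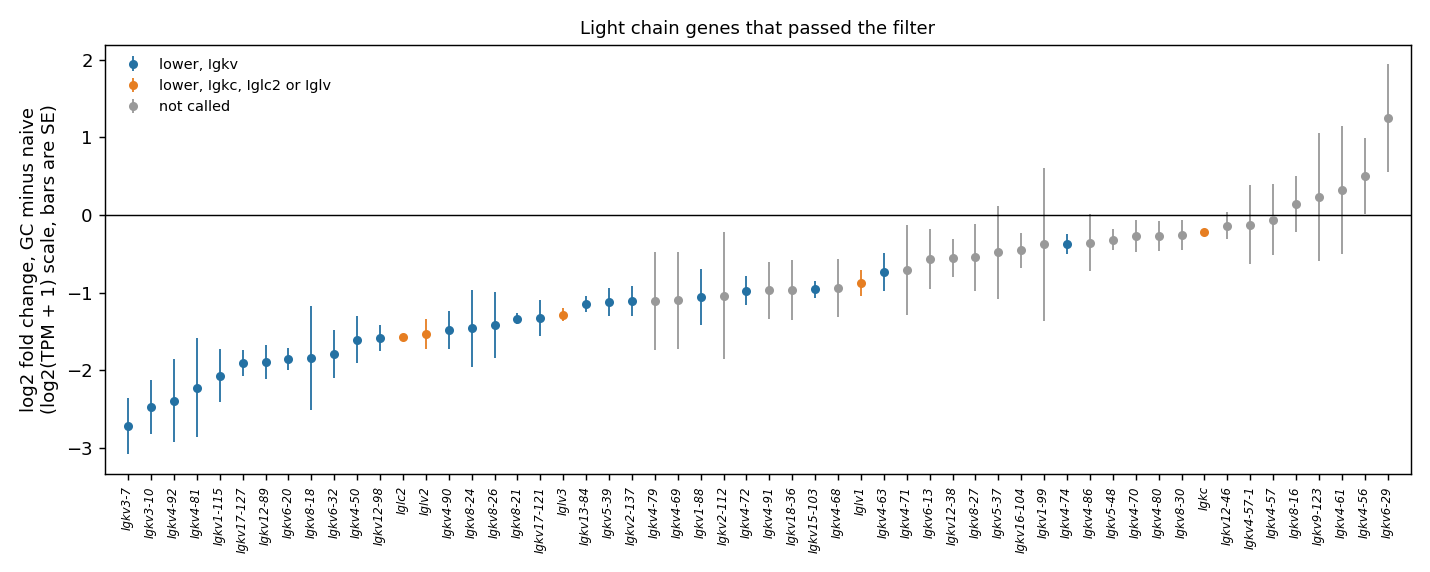
Log2 fold change, GC minus naive, on the log2(TPM + 1) scale for the 56 light chain genes tested, in ascending order, with SE bars from limma. Blue and orange points are genes called lower at an adjusted p under 0.05, grey points were not called, and 51 of 56 points lie below 0. Igkv1-115 is listed at 0 in all GC pools and is drawn at its fitted value.

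Among the Igkv genes, 25 of 51 were called lower (49.0%) and 26 were not called. On the scale of log2(TPM + 1), the largest decreases were those of Igkv3-7 and Igkv3-10. With a pseudocount of 0.1, Igkv1-115 (-4.99), Igkv4-81 (-3.46, not called at that setting) and Igkv4-92 (-3.05) exceeded them (-2.84 and -2.54). Igkv3-7 was at 5.93, 7.88 and 17.3 TPM in GC and at 77.7, 72.6 and 54.5 TPM in naive pools, with a log2 fold change of -2.72 ± 0.36 (SE; limma, adjusted p = 0.000676). Igkv3-10 was at 9.15, 25.6 and 22.0 TPM in GC and at 105, 91.0 and 108 TPM in naive pools (-2.47 ± 0.35, SE; limma, adjusted p = 0.000966). Igkv3-7 lies on chromosome 6 from 70607437 to 70608036 and Igkv3-10 from 70572633 to 70573230, both on the plus strand, and Igkv3-7 is 96.7% identical to Igkv3-12, which is 1 of the other Igkv3 genes. Together they are the Igkv3 genes with a row, 2 of 8 annotated, and they held 0.882%, 1.98% and 2.38% of Igkv TPM in GC against 6.03%, 5.99% and 5.18% in naive pools.

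The next 3 by size of decrease were near the limit of detection in GC B cells. Igkv4-92 was at 0.730, 0.803 and 5.67 TPM in GC and at 14.6, 10.8 and 15.3 TPM in naive pools (log2 fold change -2.39 ± 0.53, SE; limma, adjusted p = 0.00709). Igkv4-81 was at 3.39, 0 and 2.51 TPM in GC and at 18.5, 10.6 and 5.95 TPM in naive pools (-2.23 ± 0.64, SE; limma, adjusted p = 0.0202), a call that was lost without naive replicate 1 (adjusted p = 0.0631 in limma) or naive replicate 2 (0.0565), with a pseudocount of 0.1 (0.066) or 0.01 (0.121), and on the scale of equal summed Igkv TPM (0.0566). Igkv1-115, annotated as a pseudogene by RefSeq, was listed at 0 in all GC pools and at 1.40, 5.08 and 4.05 TPM in naive pools. It passed the filter through the naive pools alone, so it could not have been called higher. Its call is among the 25 Igkv genes and 30 light chain genes counted as lower.

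The abundant Igkv genes did not move together. Igkv6-32 (chromosome 6, 70074024 to 70074584), the highest on average in naive B cells, was at 180, 168 and 180 TPM there and at 50.2, 31.1 and 79.7 TPM in GC pools (log2 fold change -1.79 ± 0.31, SE; limma, adjusted p = 0.00230). Igkv17-127 (67861159 to 67861659) was at 184, 168 and 160 TPM in naive and at 54.6, 34.4 and 47.0 TPM in GC pools (-1.91 ± 0.16, SE; limma, adjusted p = 8.96e-05). Its near copy Igkv17-121 (68036818 to 68037318) was at 137, 132 and 119 TPM in naive and at 74.4, 39.0 and 44.4 TPM in GC pools (-1.33 ± 0.23, SE; limma, adjusted p = 0.00237). For these genes the GC and naive pools did not overlap. The same held for Igkv13-84 (68939602 to 68940067), at 53.0, 60.6 and 68.1 TPM in GC and 143, 127 and 135 TPM in naive pools, and for Igkv5-39 (69900424 to 69900977), at 57.1, 84.0 and 65.7 TPM in GC and 127, 146 and 181 TPM in naive pools. Their adjusted p values in limma were 9.15e-05 and 0.00157.

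Other abundant genes were not called. Igkv12-46 (chromosome 6, 69764523 to 69764992), the highest on average in GC B cells, was at 105, 119 and 166 TPM in GC and at 131, 136 and 156 TPM in naive pools. It is 95.4% identical to Igkv12-44, which has no row. Igkv16-104 (68425605 to 68426072) was at 182, 103 and 104 TPM in GC and at 181, 156 and 181 TPM in naive pools. Igkv5-48 (69726573 to 69727125) was at 107, 99.8 and 74.7 TPM in GC and at 109, 120 and 119 TPM in naive pools. The log2 fold changes of these genes were -0.14, -0.45 and -0.32 (adjusted p = 0.504, 0.120 and 0.0760 in limma). Each was called lower when 1 GC pool was left out: Igkv12-46 without replicate 3 (adjusted p = 0.0362 in limma), Igkv16-104 without replicate 1 (0.000921) and Igkv5-48 without replicate 1 (0.0378).

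As usage, that is as a share of summed Igkv TPM, the same genes stood higher in GC pools. Igkv12-46 held 6.12%, 7.06% and 10.1% of Igkv TPM in GC against 4.32%, 4.98% and 4.96% in naive pools. Igkv16-104 held 10.7%, 6.11% and 6.31% in GC against 5.96%, 5.70% and 5.75% in naive pools, and Igkv5-48 held 6.24%, 5.90% and 4.53% against 3.60%, 4.39% and 3.78%. In share, each GC pool was above each naive pool for these genes, whereas in TPM the groups overlapped for Igkv12-46 and Igkv16-104 and GC lay below for Igkv5-48. Conversely, Igkv6-32 held 2.94%, 1.84% and 4.84% in GC against 5.92%, 6.16% and 5.74% in naive pools. When all pools were scaled to the same summed Igkv TPM, limma called 13 of the 51 Igkv genes lower and 8 higher in GC B cells, with Igkv12-46 (adjusted p = 0.010) and Igkv5-48 (0.0138) among the higher, while Igkv16-104 was not called (log2 fold change 0.36, adjusted p = 0.149). On that scale 9.53% of all 12785 genes were called lower and 66.8% higher, against 30.1% and 35.5% on the TPM scale. Igkv genes were thus called higher less often, and lower more often, than all genes. The scaling itself brings this about, as it sets summed Igkv TPM, which was lower in GC, equal in all pools and so raises other genes. It is therefore not a further result about the Igkv genes. Of all calls, 87.5% are higher in GC, against 54.1% on the TPM scale, and the median of all genes is shifted by 0.75.

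**Figure D3:**
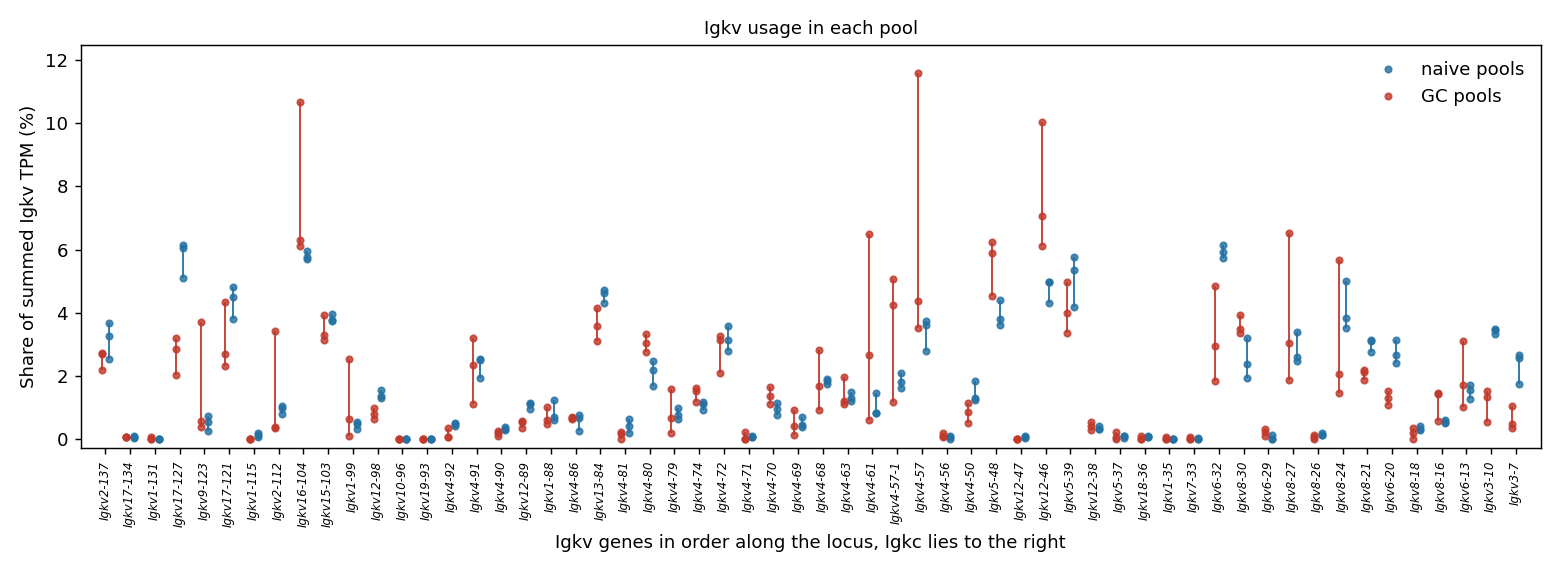
Share of summed Igkv TPM (%) held by each of the 58 Igkv genes, in their order along the locus, in the 3 GC pools (red) and the 3 naive pools (blue), with a line from the lowest to the highest pool. Naive points mostly overlap each other, while GC points of single genes are spread, up to 11.6% for Igkv4-57 in GC replicate 1.

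Pools of the same population differed in which V genes they used, and far more so in GC. Igkv4-57 (chromosome 6, 69575975 to 69576500) had 198, 73.9 and 57.7 TPM in GC and 113, 76.1 and 113 TPM in naive pools. It held 11.6% of Igkv TPM in GC replicate 1, more than any other Igkv gene in any pool, and 4.37% and 3.5% in the other GC pools. Igkv4-61 (69416893 to 69417425) was at 45.3, 110 and 9.63 TPM in GC and at 24.3, 22.7 and 45.5 TPM in naive pools, so that its share differed 11.1-fold among GC pools and 1.81-fold among naive pools. It is 96.5% identical to Igkv4-68, and its lowest GC value rests on an estimated 7.49 reads. GC replicate 2 was the high pool of Igkv4-61, and it was also the high pool of Igkv8-24 (70216858 to 70217421) and Igkv8-27 (70171809 to 70172270).

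Igkv8-24 was at 35.0, 96.1 and 23.7 TPM in GC and at 107, 105 and 157 TPM in naive pools. It was called lower (log2 fold change -1.46 ± 0.49, SE; limma, adjusted p = 0.0377), but leaving out any pool other than GC replicate 2 ended the call (adjusted p between 0.0700 and 0.114 in limma). Igkv8-27 was at 32, 110 and 49.9 TPM in GC and at 102, 70.9 and 76.9 TPM in naive pools. It was not called (log2 fold change -0.54; limma, adjusted p = 0.305), and without GC replicate 2 it was called lower (adjusted p = 0.0133). The Igkv8 genes together held 11.2%, 19.0% and 11.5% of Igkv TPM in GC against 12.8%, 13.1% and 14.4% in naive pools.

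The spread was compared over the 39 Igkv genes whose mean was 10 TPM or more. The SD among GC pools exceeded the SD among naive pools in 34 of the 39 (87.2%) on the log2(TPM + 1) scale, where 39.4% of all 8505 genes at this level did. The median SD of these Igkv genes was 0.48 among GC and 0.24 among naive pools, against 0.09 and 0.11 for the 7518 other genes of the same range of levels. Those other genes were matched on TPM and not on read number, and the part of read number in this difference was not tested. Igkv values rest on few reads. The median of all 58 Igkv genes was an estimated 15.4 to 22.6 reads in a GC pool and 38.6 to 46.9 reads in a naive pool. The 39 genes are the more abundant of these. Their median coefficient of variation was 36.2% in GC, against a median of 15.2% from counting error of their own reads alone. In naive pools it was 17.0% against 10.3%. For Igkv4-57 the coefficient of variation was 70.0% in GC against 8.37% from counting.

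Distances between pools showed the same. The Bray-Curtis distance of Igkv usage, the percent of usage that would have to be moved from some genes to others to turn a pool into another, ranged from 23.6% to 27.2% when 2 GC pools were compared (3 pairs) and from 7.55% to 8.84% when 2 naive pools were (3 pairs). Mixed pairs, of which there are 9, ranged from 22.3% to 27.1%. In usage, GC pools were therefore about as far from each other as from naive pools. These pairs share pools and were not tested.

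**Figure D4:**
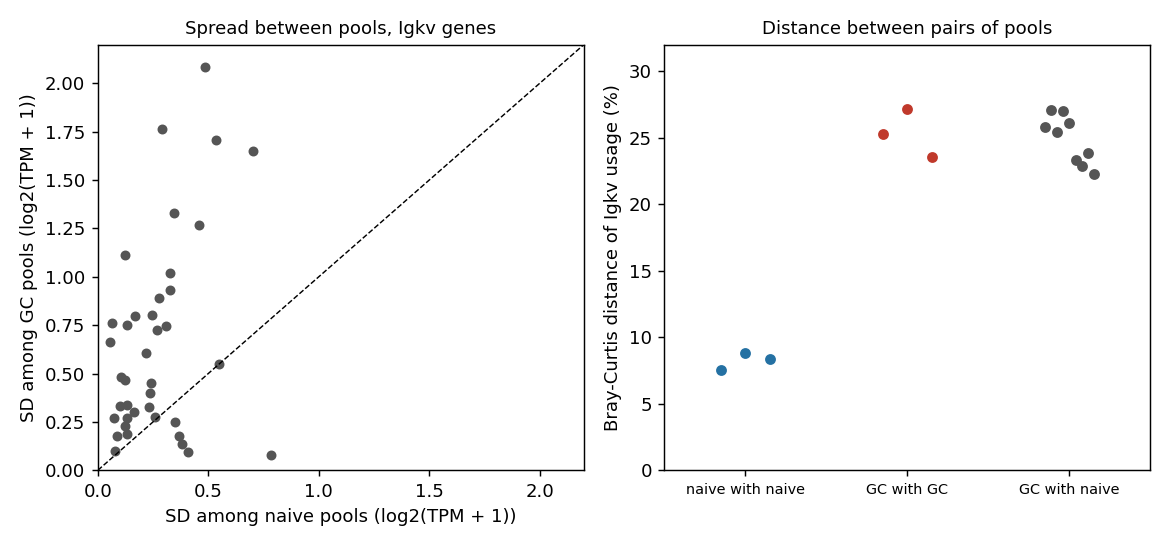
Left, SD among the 3 GC pools against SD among the 3 naive pools on the log2(TPM + 1) scale for the 39 Igkv genes whose mean was 10 TPM or more; 34 lie above the dashed line of equal SD. Right, Bray-Curtis distance (%) of Igkv usage for each pair of pools; the naive pairs lie between 7.55% and 8.84%, and GC pairs and mixed pairs lie between 22.3% and 27.2%.

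Usage was less even in GC pools. Pielou's evenness, which is 1 if all 58 Igkv genes have the same share, was 0.826, 0.838 and 0.853 in GC and 0.872, 0.867 and 0.865 in naive pools (exact two-sided permutation test, p = 0.1). The inverse Simpson index, the number of equally used genes that would give the same concentration, was 20.5, 24.3 and 25.6 in GC and 29.0, 27.9 and 28.2 in naive pools (exact two-sided permutation test, p = 0.1). For both, every GC pool was below every naive pool, but with genes summed by family the groups overlapped in evenness (exact two-sided permutation test, p = 0.3). The 10 highest genes of a pool held 56.1%, 55.7% and 49.2% of Igkv TPM in GC and 46.8%, 49.8% and 48.2% in naive pools, and here the groups overlapped (exact two-sided permutation test, p = 0.2), though not without GC replicate 3 or naive replicate 2. These shares rest on between 1940 and 5303 estimated Igkv reads per pool, fewer in GC, and the part of read number in evenness was not tested.

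By family, the Igkv4 genes, the most numerous (19 of 26 annotated have a row), held a larger share in GC B cells, with 32.5%, 32.7% and 26.9% of Igkv TPM against 24%, 22.3% and 24.2%. The Igkv6 genes held 7.87%, 4.91% and 7.11% in GC against 9.70%, 10.9% and 10.1% in naive pools, and Igkv17 held 7.59%, 4.39% and 5.60% against 10.6%, 11% and 8.93%. In these families the GC and naive pools did not overlap. Igkv12 and Igkv5, with overlapping groups, each held between 7.34% and 11.6% in every pool.

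The 58 Igkv genes are spread over 3.05 Mb of chromosome 6 upstream of Igkc, from Igkv2-137 at the far end to Igkv3-7 near it. The 34 genes on the side of the midpoint of this span that is near Igkc held 62.5%, 71.1% and 57.6% of Igkv TPM in GC and 57.5%, 61.4% and 61.9% in naive pools, so that position gave no separation of the groups. Across the 51 tested Igkv genes, distance from Igkc had a Spearman rho of -0.05 with the log2 fold change and of 0.01 with the naive level, as a description over genes that share pools. By orientation the groups did not overlap in share. V genes that lie opposite to Igkc join by inversion of the DNA between them. The 44 such genes held 69.9%, 76.6% and 68.6% of Igkv TPM in GC and 61.8%, 63.2% and 65.2% in naive pools, and 14 of the 37 tested were called lower. Of the 14 genes in the orientation of Igkc, 11 were called lower. Among all genes tested, 30.1% were, and the difference between both orientations was not tested. The 11 include Igkv1-115, which passed the filter through the naive pools alone and could not have been called higher. Igkv8-18 and Igkv8-26 among the 11 also passed only with the help of naive pools. The same held for Igkv4-81 and Igkv4-92 among the opposite genes called lower. The Igkv4 family makes up 19 of the 44 and Igkv3-7, Igkv3-10, Igkv17-121 and Igkv17-127 are among the 14, so orientation and family overlap in part, and the part of family was not tested. RefSeq annotates 4 of the Igkv genes as pseudogenes, and these held at most 0.428% of Igkv TPM in any pool.

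Genes that act with the light chain were examined as lists. Of the 3 B cell receptor partners with a row, all fell in GC B cells in limma, where 30.1% of all genes tested did. Cd79a, a signaling chain of the receptor, was at 1099, 1074 and 1057 TPM in GC and at 2326, 2319 and 2402 TPM in naive pools (log2 fold change -1.12, adjusted p = 9.89e-07 in limma). Ighm, the mu heavy chain, was at 478, 454 and 464 TPM in GC and at 3727, 3728 and 3745 TPM in naive pools (-3.0, adjusted p = 7.58e-08 in limma). Of the 7 genes of the surrogate light chain and of recombination, only Vpreb3 passed the filter and was lower (196, 205 and 210 TPM against 321, 292 and 337 TPM). Rag1, which cuts V and J segments for joining, was at or under 0.194 TPM in every pool, and Rag2 was listed at 0 in all of them.

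Of 11 transcription factors that bind light chain enhancers or control the loci, 3 were higher, 5 lower and 3 not called in limma, where 35.5% of all genes tested were higher and 30.1% lower. Tcf3, which encodes E2A, was at 323, 323 and 321 TPM in GC and at 147, 154 and 144 TPM in naive pools. Irf4, which binds the kappa 3′ and lambda enhancers with PU.1 or SpiB, was at 22.1, 21.9 and 21.2 TPM in GC and at 79.6, 79.5 and 70.1 TPM in naive pools. Their log2 fold changes were 1.11 and -1.76 (adjusted p = 1.77e-06 and 2.49e-06 in limma). Spib itself was not called (-0.05, adjusted p = 0.420 in limma).

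Plasma cells hold very large amounts of light chain RNA, so their markers are given beside these levels. Of 9 markers, 4 were higher, 4 lower and 1 (Tnfrsf17) not tested in limma, where 35.5% of all genes tested were higher and 30.1% lower. Their summed level was 948 to 979 TPM in GC and 258 to 291 TPM in naive pools. Most of the GC sum was Igj, the J chain, at 660, 693 and 656 TPM, while Sdc1 was at 1.65, 0.927 and 1.95 TPM in GC and 3.66, 3.28 and 2.62 TPM in naive pools. Epithelial markers summed to 23.3 to 41.6 TPM in GC and 50.4 to 73.2 TPM in naive pools. Of these 5 markers, 4 were lower and 1 higher in GC, beside the same shares of all genes tested. T cell markers summed to at most 3.68 TPM and myeloid markers to at most 6.94 TPM in any pool. The part of other cells in the light chain values was not tested.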

How the data were processed

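RNA-Seq was analysed in 6 pools, 3 of GC and 3 of naive B cells. According to the methods and labels, the authors removed adapters with cutadapt 1.9, quantified reads with RSEM 1.2.25 on the mouse transcriptome (NCBIm38 v75) and deposited FPKM per gene with 2 decimals, a value that depends on the transcript length used. FPKM was rescaled to TPM (FPKM over the pool total times 1000000). Symbols came from a name table, which named 33398 of 39179 identifiers, and coordinates from RefSeq GRCm38.p6 by symbol (63 of 63 matched).

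Differences were tested in limma 3.58.1 under R 4.3.3 (eBayes with trend) on log2(TPM + 1), over the 12785 genes reaching 1 TPM in 3 pools or more, with Benjamini-Hochberg adjustment over all of them and a threshold of 0.05. A fold change on this scale understates changes of low genes. Values with 1 number per pool were compared with exact two-sided permutation tests, which cannot go below p = 0.1 here. Other steps used Python 3.11.15, scipy 1.17.1, biopython 1.88 and matplotlib 3.10.9. Reads per gene were estimated from FPKM, the effective length and the estimated depth, and counting error covers only these reads.

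Named genes are Igkc and the Iglc and Iglv genes, the 10 Igkv genes with the highest mean TPM, the 5 with the largest called change in each direction without overlap (none was higher), the 5 with at least 100 TPM in some pool and the widest usage within a population, and genes of the lists; other genes named, such as Igkv6-29, were chosen after their values were seen. Members, lists and tests were chosen with earlier results of these data known. Ighd and Spi1 were not analysed here. Some genes of the marker lists are not reported here.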

Additional observations from a re-analysis of the deposited data

How the results depend on the processing

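Of 98 alternatives to the counts and to the values given per pool, 88 kept a count within 1.5 times or a difference within 1 SD between pools, which does not show that overlap of the groups was kept. Of 329 alternatives to the fold changes of 22 named genes, 294 kept their sign and whether they were called, 17 lost a call, 5 gained one and 13 changed direction, 9 of these for genes called in neither fit. Scaling all pools to the same summed Igkv TPM called 16 of 56 light chain genes lower and 9 higher in GC B cells. Among all genes tested, 9.53% were lower and 66.8% higher on that scale. This scaling reversed Igkc (log2 fold change 0.60), Igkv12-46 (0.67), Igkv5-48 (0.49), Igkv16-104 (0.36), Igkv4-57 (0.74) and Igkv8-27 (0.26). It moves the median of all genes by 0.75. Quantile normalization, which cannot show a change of a gene that keeps its rank, gave 0.017 for Igkc, counted here as a change of direction. Leaving out 1 pool reversed Igkv4-57 (0.11 without GC replicate 2, 0.29 without GC replicate 3, 0.031 without naive replicate 1 and 0.030 without naive replicate 3), Igkv4-61 (-0.45 without GC replicate 2) and Igkv12-46 (0.0026 without GC replicate 1). Over the pools left out, these genes ranged from -0.59 to 0.29, -0.45 to 1.24 and -0.33 to 0.0026. With FPKM as deposited, the difference in light chain total was -3221 FPKM. With Igkv genes summed by family, the difference between GC and naive pools was -0.0452 in evenness, with groups that overlapped (exact permutation test, p = 0.3), -1.70 in the inverse Simpson index and 0.641 percentage points in the share of the 10 highest families. Pools with the same number share only that number (correlation of deviations between 0.0225 and 0.0830 over all genes). The fit with the replicate block called 28 light chain genes lower and 1 higher, Igkv6-29, where 28.3% of all genes were lower and 34.0% higher. Leaving out each pool in turn gave 23 to 32 light chain genes lower and 0 to 1 higher. Among all genes tested, 26.5% to 29.8% were then lower and 32.6% to 34.0% higher. The differences were -4225 to -3566 TPM in light chain total, -6.09 to -5.72 and -3.87 to -1.84 percentage points in lambda share of constant and variable genes, -0.104 to -0.0943 in the kappa ratio of V to C, -0.0358 to -0.0223 in evenness, -5.92 to -3.40 in the inverse Simpson index, and 4.23 to 7.65 percentage points in the share of the 10 highest genes. Of the 39 Igkv genes, 27 to 29 had a larger SD among GC pools without a GC pool, and 33 to 35 without a naive pool. Among all genes at this level, 33.6% to 34.5% did without a GC pool and 43.4% to 56.4% without a naive pool. Alternatives to that count, added after the data were seen, also gave 23 of 26 genes at 30 TPM or more (37.9% of all genes) and 34 of 39 with a pseudocount of 0.1 (39.4%). A lambda share without the lowest Iglc gene could not be computed, as 1 Iglc gene has a row. Low read numbers limit all Igkv genes under about 10 TPM.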

Other observations

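The ratio of V to C transcripts, over the genes with a row, moved in opposite directions for kappa and lambda. The kappa ratio covers 58 of 100 annotated Igkv genes, and the lambda ratio divides all Iglv genes by Iglc2 alone. Iglv1 made up 46.4% to 62.3% of summed Iglv TPM over all pools, with each GC pool above each naive pool. Whether Iglv1 transcripts carry Iglc2 or another constant gene was not tested, so the lambda ratio need not compare V and C parts of the same transcripts. The part of genes without a row in either ratio was not tested. The mean ratio was 0.192 ± 0.00142 in GC and 0.291 ± 0.00974 in naive pools for kappa. For lambda it was 0.881 ± 0.129 in GC and 0.629 ± 0.0558 in naive pools (SD, n = 3 each). The groups did not overlap at either locus. The kappa ratio had an SD of 0.00142 among GC pools, while the share of Igkv4-61 differed 11.1-fold among the same pools. The lowest of these GC pools had an estimated 7.49 reads of Igkv4-61.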
